A study of Mus musculus with 4 samples.

Results

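The microRNAs miR-132 and miR-212 were examined in the hippocampus of mice that had learned a spatial task well or poorly. The members were the probes named exactly mmu-miR-132 or mmu-miR-212 on a mouse miRNA array, which gave 2 of its 705 miRNA probes and 2 of the 316 that could be tested. All animals were wild-type C57BL/6J mice, a common inbred strain, and both groups had been trained in the Morris water maze, which tests how well an animal learns the place of a submerged platform. The hippocampus had been taken as soon as training ended, and 2 arrays came from good and 2 from poor performers. The series describes 4 mice per group. Their division over the arrays, their age and their sex are not given in the labels. The p-values therefore rest on array-to-array spread alone, and that spread may be technical. No group of untrained mice was used here, so the values compare trained mice with trained mice.

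miR-132 and miR-212 are made from neighbouring hairpins of one primary transcript. CREB, a transcription factor that is phosphorylated after synaptic activity and calcium entry, drives this transcript in neurons. miR-132 is known to promote the growth of dendrites and spines. The title of the series places a microRNA between phosphorylated CREB and MEF2, an activity-regulated transcription factor, and the pair is a known microRNA output of CREB. A miRNA array does not measure CREB, its phosphorylation or the primary transcript, so the label CREB-driven is background here.

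The array names carry no strand suffix. Under the older naming the plain names stood for the 3p strands, and both were found in RefSeq (mouse assembly GRCm38.p6). They are shown because the shared seed, the bases that pair with a target, makes them members of one family. Capitals mark the seed, bases 2 to 8 from the 5′ end.
miR-132-3p: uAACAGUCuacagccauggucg
miR-212-3p: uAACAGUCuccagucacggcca
Both were 22 bases long and identical at 17 positions, including the first 9. Written as the miR-132 base, the position from the 5′ end and the miR-212 base, the 5 differences were A10C, C14U, U17C, U20C and G22A. Of 1679 mouse mature miRNA names in the RefSeq table, these 2 alone had this seed. The other mature sequence closest to miR-132-3p differed from it by 7 edits, and the one closest to miR-212-3p by 6, against 5 between the pair. The deposited files do not give the probes' sequences, so how far each probe also binds the other miRNA was not tested.

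The pair is encoded on the plus strand of chromosome 11, with the mature strands at chr11:75173723-75173744 (miR-132-3p) and chr11:75173443-75173464 (miR-212-3p). The hairpins are shown with the 3p strand in capitals, because the array holds no probe named for the opposite, 5p strand of either.
Mir132 hairpin: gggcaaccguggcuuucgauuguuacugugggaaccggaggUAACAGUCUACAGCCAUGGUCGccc
Mir212 hairpin: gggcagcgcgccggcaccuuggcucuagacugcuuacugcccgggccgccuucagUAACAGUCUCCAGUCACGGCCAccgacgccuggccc
Mir212 lies upstream, and 203 bases separate the hairpins. In RefSeq annotation of this assembly the neighbouring protein-coding genes are Hic1 and Ovca2, and no annotated gene lies between the hairpins.

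Both miRNAs were detected on every array. Each probe had 3 spots per array, and all 12 spots of each probe carried the flag value 0, which the files set apart from the value -50 of spots as dim as blanks. The 3 spots of miR-132 had raw intensities of 1662, 1640 and 1935 on the first and of 1738, 1717 and 1944 on the second good-performer array. In poor performers they were 1581, 1545 and 1759 on the first and 1577, 1586 and 1732 on the second. At each of the 3 spots both good-performer arrays were brighter than both poor-performer arrays. This separation at every spot of the raw data, with good above poor, occurred in 15.8% of tested probes. The third spot in file order was the brightest of the 3 on all 4 arrays, and the spread between spots of one array was 5.33% to 9.41% of the mean.

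The miR-212 probe was dimmer but above background. Its spots read 176, 157 and 161 on the first and 188, 169 and 170 on the second good-performer array. Those of poor performers read 170, 146 and 152 on the first and 183, 158 and 152 on the second. Here the groups overlapped at 2 of the 3 spots, and the second poor-performer array was as bright as the first good-performer array on average (164 and 165). Blank spots had means of 63.0 to 64.4 (36 spots per array). The mean of miR-132 was 25.4 to 28.0 times, and that of miR-212 2.44 to 2.73 times, the blank mean of its array. A probe's brightness depends on its sequence and labelling, so the brightness of the miR-132 probe is not set against that of miR-212 as an amount of RNA.

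**Figure D1:**
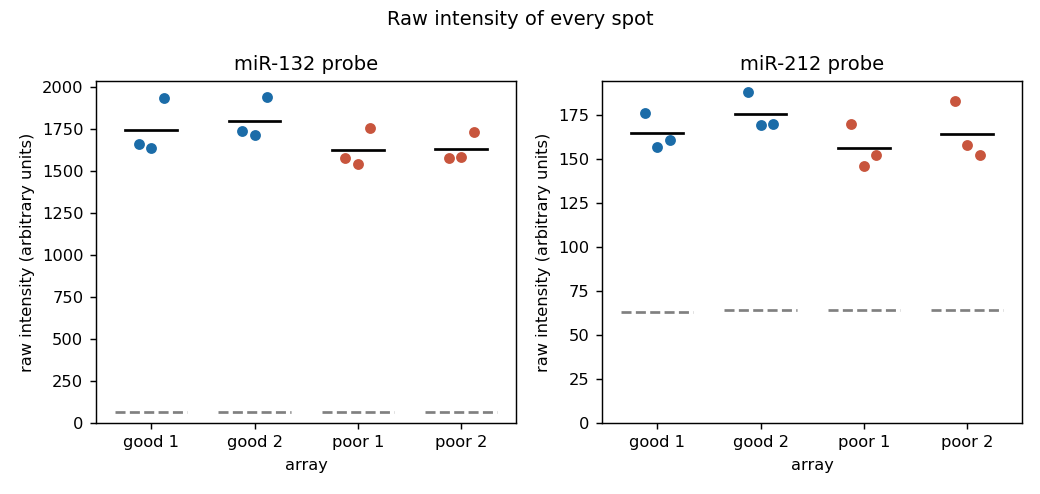
Raw intensity (linear, arbitrary units, axis from 0) of every spot of the miR-132 and miR-212 probes on the 2 good-performer (blue) and 2 poor-performer (red) arrays. Points are the 3 spots in file order, black bars their mean and grey dashed bars the mean of 36 blank spots. The miR-132 means are 1746 and 1800 in good and 1628 and 1632 in poor performers, and the miR-212 means are 165 and 176 in good and 156 and 164 in poor performers.

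The comparison asked whether the CREB-driven pair differed between good and poor performers. Neither member passed the test. On the log2 scale after background correction and quantile normalization, miR-132 had values of 10.77 and 10.80 in good and of 10.69 and 10.69 in poor performers. Both good-performer arrays lay above both poor-performer arrays. The group means were 10.78 ± 0.025 (SD, n = 2) and 10.69 ± 0.0011 (SD, n = 2). The log2 fold change of good over poor was 0.091 ± 0.029 (SE), or 1.07-fold, with a 95% confidence interval of 0.010 to 0.172. Its limma p was 0.0352 before and 0.209 after Benjamini-Hochberg adjustment over all 316 tested probes.

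miR-212 had values of 7.38 and 7.41 in good and of 7.32 and 7.35 in poor performers. Its groups did not overlap either, by a margin of the size of the spread within them. The means were 7.40 ± 0.025 (SD, n = 2) and 7.34 ± 0.023 (SD, n = 2). The log2 fold change was 0.060 ± 0.031 (SE), or 1.04-fold, with a 95% confidence interval of -0.026 to 0.147. The limma p of miR-212 was 0.126 before and 0.375 after Benjamini-Hochberg adjustment over the same probes. On this scale the intervals end at 1.13-fold for miR-132 and at 1.11-fold for miR-212, so a larger rise lies outside them. Under other processing with all arrays the upper ends reached 1.17-fold for miR-132 and 1.16-fold for miR-212. A p that misses the threshold does not show that the groups were alike.

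Across the array, 16 of 316 probes passed (5.06%), of which 10 were higher in good performers (3.16%) and 6 lower. Groups that do not overlap were common: they occurred in 50.6% of tested probes, and with good above poor in 23.1%. An unadjusted p under 0.05, as miR-132 had, occurred in 20.9%. The separation of both members and the unadjusted p of miR-132 are read against these shares. In all, 13.6% of tested probes had a higher fold change than miR-132 and 20.6% a higher one than miR-212. The exact permutation test over 2 arrays against 2 allows 3 splits, so its smallest two-sided p is 0.333, the value both members had.

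The direction of both fold changes depended on how arrays were scaled. In the authors' normalized table miR-132 stood at 1616 and 1637 in good and at 1652 and 1653 in poor performers, so that every good-performer array lay below every poor-performer array. miR-212 stood at 158 and 160 in good and at 159 and 163 in poor performers, with overlap. The log2 ratio of good over poor in the authors' deposited table was -0.023 for miR-132 and -0.017 for miR-212, and 318 of its 383 probes had a ratio below 0. Groups with good below poor and no overlap made up 59.5% of the 316 tested probes in that table. The authors' values gave limma adjusted p of 0.366 for miR-132 and 0.601 for miR-212.

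Added spike-in RNA gave a second view of array brightness. Without normalization the 5 spike-in controls were brighter in good performers by 0.048 to 0.262 log2 units, while miR-132 was brighter by 0.119 and miR-212 by 0.080. The spike-ins nearest to the miR-132 probe in brightness, controls 4 and 5, had 0.085 and 0.048, both below the value of miR-132. The miR-212 probe was dimmer than every spike-in, so none was measured at its brightness. Scaled to the spike-ins, miR-132 read 10.76 and 10.68 in good and 10.78 and 10.70 in poor performers, with overlap, and its log2 fold change was -0.023 (limma adjusted p = 0.813). miR-212 read 7.36 and 7.32 in good and 7.41 and 7.39 in poor performers, with good below poor, and its log2 fold change was -0.062 (limma adjusted p = 0.489).

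The scale moved the whole array with the pair. The median log2 fold change of all tested probes was -0.0072 with quantile normalization, 0.031 without normalization, -0.083 in the table normalized by the authors and -0.111 after scaling to the spike-ins. Relative to that median, miR-132 was higher in good performers by 0.098, 0.088, 0.060 and 0.088 in these 4 settings, and miR-212 by 0.068, 0.050, 0.065 and 0.050. Over all 21 settings computed, including those without 1 array, the difference from the median lay between 0.028 and 0.120 for miR-132 and between 0.034 and 0.098 for miR-212. The settings share the same 4 arrays. Those that scale a whole array by 1 factor (no normalization, spike-in and both 75th percentile scalings) give the same difference by construction, 0.088 and 0.050, so they add no support. Between 7.66% and 36.4% of tested probes still had a higher fold change than miR-132, and 13.6% to 29.4% a higher one than miR-212. Both low ends came from the setting without a filter, where all 705 probes were tested. With a filter the lowest shares were 8.23% for miR-132 (offset 200) and 16.1% for miR-212 (median over spots).

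**Figure D2:**
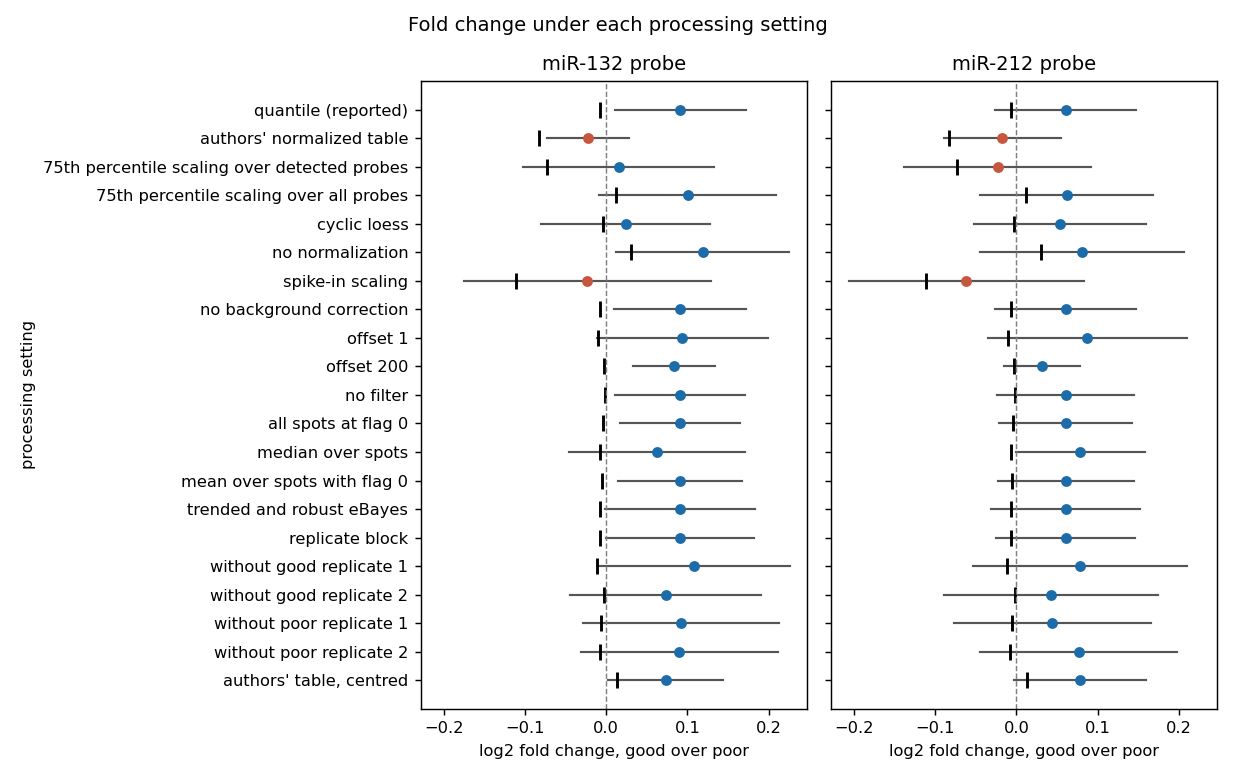
Log2 fold change of good over poor performers (x axis) for miR-132 and miR-212 under each processing setting (y axis). Points are estimates (blue above 0, red below 0), lines the 95% confidence intervals of limma, and black ticks the median of all tested probes. The estimates run from -0.023 to 0.119 for miR-132 and from -0.062 to 0.087 for miR-212, and each point lies to the right of its tick.

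**Figure D3:**
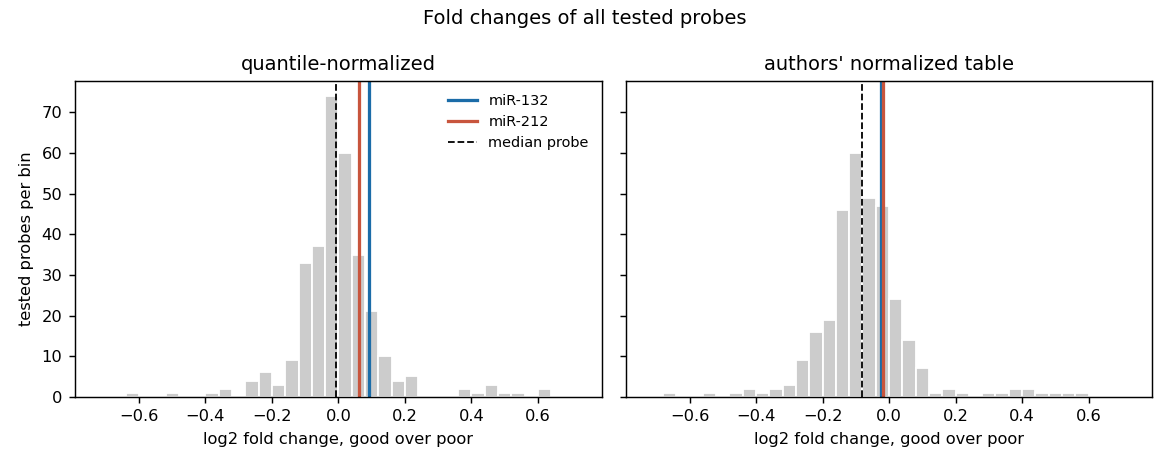
Number of tested probes (y axis) by log2 fold change of good over poor performers (x axis, bins of equal width) after quantile normalization and in the authors' normalized table. Blue and red lines mark miR-132 and miR-212, and the dashed line marks the median of the 316 probes, at -0.0072 on the left and -0.083 on the right. Both members lie to the right of the median and within the body of the distribution in both panels.

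The fold changes of the pair were close to each other. The log2 fold change of miR-132 minus that of miR-212 was 0.030 (exact permutation test over arrays, two-sided p = 0.333, the smallest possible). The same difference was -0.0056 from the authors' normalized values and 0.038 without normalization. Every value computed lay between -0.029 and 0.053. With 2 arrays per group a difference between the members could not have passed this test.

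The patterns over the 4 arrays were compared after centring each probe on its own mean, by the root mean square difference in log2 units. Of 315 other tested probes, miR-212 ranked 7th in likeness to miR-132 (0.019, against a median of 0.066), and miR-132 ranked 13th in likeness to miR-212 (0.019, against a median of 0.058). The nearest probes to miR-132 were miR-99b (0.0070), miR-181a (0.012) and miR-29a (0.015). The nearest to miR-212 were miR-669e (0.0072), miR-466f-5p (0.0092) and miR-24 (0.014). None of these 6 passed the test (limma adjusted p from 0.193 to 0.562), and with 4 arrays the likeness is a description only.

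The pair was then set beside other miRNAs linked to CREB and MEF2. The list held 11 miRNAs, the pair included. Of these 9 were tested, and miR-299 and miR-369-3p did not pass the filter on dim spots. Of the 9, 1 rose and none fell, and the median log2 fold change was 0.025, against -0.0072 over all tested probes. That median counts the values of the pair itself, so it is not independent of them. The member that rose was miR-466f-3p, which is in the list because the study turns on it and is not independent evidence, at 9.88 and 9.93 in good and 9.29 and 9.28 in poor performers. This is a log2 fold change of 0.62 with an SE of 0.031 (limma adjusted p = 0.0058), and miR-132 came next in the list.

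The other members of the list did not pass. miR-134, known as a brake on spine growth, had a log2 fold change of -0.022. For miR-124, a neuronal miRNA described as a repressor of the Creb1 message, it was 0.0097. The miR-379 to miR-410 cluster is driven by MEF2 in active neurons. miR-134 belongs to it too, and the list holds only some of its miRNAs, so the values do not summarise the cluster. Of the other listed ones, miR-379 had 0.027, miR-410 0.025, miR-329 0.0056 and miR-381 -0.031. Adjusted p over the array for these 6 lay between 0.668 and 0.985. After quantile normalization the good-performer mean was the higher for 7 of the 9, against 145 of 316 over the array. The 7 include the pair and miR-466f-3p, so this count is not independent of them either. When scaled to the spike-ins the good-performer mean was the higher for 1 of the 9, against 40 of 316. In the authors' normalized values it was the higher for 1 of the 9, against 59 of 316. There the list median was -0.023, the value of miR-132 itself, with the array median at -0.083.

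**Figure D4:**
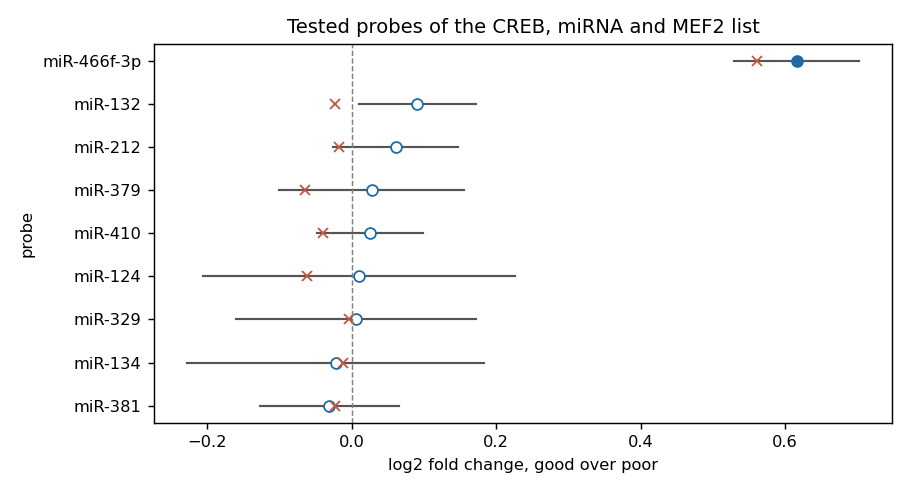
Log2 fold change of good over poor performers (x axis) for the 9 tested probes of the list of miRNAs linked to CREB and MEF2 (y axis). Circles are values after quantile normalization (filled where the limma adjusted p is under 0.05), lines their 95% confidence intervals, and red crosses the values in the authors' normalized table. miR-466f-3p stands at 0.62, miR-132 at 0.091 and miR-212 at 0.060, and the crosses of miR-132 and miR-212 lie just below 0.

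Among 24 further miRNAs described at synapses, 21 were tested and none passed (limma; 5 at an unadjusted p under 0.05, as 66 of the 316 tested probes had). Their median log2 fold change was 0.0093, and the good-performer mean was the higher for 12, against 145 of 316 over the array. Of the 21, it was the higher for 4 when scaled to the spike-ins, against 40 of 316 over the array. In the authors' normalized values it was the higher for 7, against 59 of 316. miR-22 had the highest value, 0.154 (adjusted p = 0.0856), and miR-485 the lowest, -0.129 (adjusted p = 0.471). miR-128, a neuron-enriched miRNA, had 0.142 and miR-29a 0.103, both above miR-132 (adjusted p = 0.154 and 0.193).

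Whole hippocampus mixes cell types, and in such tissue fewer cells of a type and less RNA per cell cannot be told apart. All 5 neuronal and all 3 astrocyte markers, and the immune marker miR-146a, also stand in the lists above. Their counts are therefore not separate observations. The neuronal markers miR-124, miR-9, miR-128, miR-138 and miR-137 were all detected, the good-performer mean was the higher for 2 of 5, and their median log2 fold change was -0.0093. Their summed raw intensity was 31190 to 31210 in good and 28530 to 29180 in poor performers. miR-124 was the brightest of them (log2 mean 14.43 in good performers, with miR-128 next at 11.99), so the sum mostly follows that probe. With spike-in scaling the good-performer mean was the higher for 0 of these 5. Their median was then -0.113, against -0.111 over the array. All 3 astrocyte markers had the higher mean in good performers (median 0.103, summed raw intensity 9075 to 9377 in good and 8283 to 8436 in poor), and none passed. With spike-in scaling this held for 1 of the 3, against 40 of 316 over the array. Their median was then -0.0043, against -0.111 over the array. The raw sums are not normalized, and without normalization the median log2 fold change over all tested probes was 0.031. After quantile normalization the good-performer mean was the higher for 145 and the lower for 170 probes over the array. Of 3 oligodendrocyte markers miR-219 fell, by 0.27 on the log2 scale (limma adjusted p = 0.0250), and all 3 had the lower mean (summed raw intensity 1071 to 1080 in good and 1143 to 1164 in poor). Endothelial and mural markers had the lower mean in 4 of 4 (1355 to 1434 in good and 1361 to 1362 in poor), and none passed. Choroid plexus and ependymal markers had a median of -0.022 over 3 tested of 4. Immune markers had a median of -0.014 over 3 tested of 6, with miR-223, miR-142-3p and miR-142-5p not above the filter on dim spots. Erythroid markers had -0.072 over 2 tested of 3. The part of these markers in the values of miR-132 and miR-212 was not tested.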

How the data were processed

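Total RNA labelled with the dye Cy5 was hybridised to 1-colour miRNA arrays, 1 sample per array, per the labels' protocols. The deposited raw intensity, per the file headers, is unnormalized brightness for each of 2115 miRNA spots (3 per probe) and for control spots, with a flag. Another deposited table gives, per the file headers, normalized intensity from the authors for 383 probes and their log2 ratio of good over poor performers. Neither the normalization method nor the array design is stated in the labels or headers.

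Raw intensity was background-corrected (normexp of limma 3.58.1 in R 4.3.3, offset 50), taken to log2, quantile-normalized over miRNA spots and averaged over the 3 spots. With this offset, fold changes of dim probes such as miR-212 are understated. Testing required flag 0 at 2 or more of the 3 spots on both arrays of either group. Groups were compared with lmFit and eBayes, two-sided, with Benjamini-Hochberg adjustment over 316 probes and a threshold of 0.05. The fit was tested on simulated data. Precision is limited by having 2 arrays per group.

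Between 310 and 330 probes were detected per array. Arrays of one group differed by 3.36 (good) and 3.51 (poor) times the variance that spot noise predicts, over 272 probes, so they were not copies of 1 array. Spot noise leaves out labelling and hybridisation, and the ratio does not show separate animals. The arrays are counted as 2 because the labels list them as 2 samples. The members, lists and alternatives were chosen with earlier results of these data known. Named probes were the members, the listed miRNAs and, for each member, the 3 tested probes nearest in pattern over the 4 arrays. In the further lists, miR-22 and miR-485 were named as the extremes, and miR-128 and miR-29a after their values were seen. Sequences and locations came from RefSeq, GRCm38.p6, where both members matched. Alternatives were other normalizations, offsets, filters, spot summaries and variance models, a replicate block and the omission of single arrays.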

Additional observations from a re-analysis of the deposited data

How the results depend on the processing

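Neither miR-132 nor miR-212 passed the threshold in any of the 20 alternatives (limma; lowest adjusted p with all arrays 0.101 for miR-132, with offset 200, and 0.236 for miR-212, in the authors' normalized table with each array centred on its median tested probe). That centred table was added after the data were seen. The log2 fold change of miR-132 was below 0 in 2 of 16 alternatives with all 4 arrays, at -0.0229 in the authors' normalized table and at -0.0232 when scaled to the spike-ins. That of miR-212 was below 0 in 3, at -0.0174, -0.0616 and, with 75th percentile scaling over detected probes, -0.0234. No filter, all spots at flag 0, the mean over flag 0 spots, trended and robust eBayes and the replicate block left both estimates unchanged. These could not change the sign, so the counts do not measure how stable the direction was. The cause of the changes of sign was not tested. Without 1 array the log2 fold change was 0.0734 to 0.108 for miR-132 and 0.0427 to 0.0782 for miR-212. The remaining array of that group was taken to vary as the other group does. The difference between the members fell below 0 in the authors' normalized table and in its centred form (-0.00556 in both), with cyclic loess (-0.0292) and with the median over spots (-0.0162). Under the replicate block miR-132 had 0.0908 (adjusted p = 0.232), miR-212 had 0.0604 (0.328), and 13 probes passed. Arrays with the same number deviated together weakly (correlation over probes 0.179), and 2 pairs are too few to read the numbers as pairing. The 16 probes past the threshold became 37 in the authors' normalized table, 33 with 75th percentile scaling over detected probes, 31 when scaled to the spike-ins, 30 with trended and robust eBayes, 7 with offset 1, 6 when spots were summarised by their median, and 0 to 0 without 1 array (limma; 40 to 59 at an unadjusted p under 0.05). Their split into 10 higher and 6 lower became 6 and 31, 11 and 22, and 10 and 21 in the first 3 of these, 16 and 6 with 75th percentile scaling over all probes, 12 and 3 without normalization and 11 and 4 in the centred authors' table. The miR-212 probe lay under 3 times the blank level, and its fold change also moved with the offset, without a change of sign (0.0875 with offset 1, 0.0311 with offset 200).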
